A study of Homo sapiens with 2 samples.

Results

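The long noncoding RNAs (lncRNAs) described here are 10 genes with established links to cancer: MALAT1, NEAT1, HULC, HOTAIR, MEG3, GAS5, UCA1, PVT1, SNHG1 and TUG1. They were chosen by gene symbol from the 58174 genes listed in the deposited tables, in which the 10 symbols occupied 13 rows. RNA-seq was performed on PLC-8024, a human hepatocellular carcinoma (HCC) cell line, in 1 library of PLC-8024-CTR cells, which carry a control vector, and 1 library of PLC-8024-GDF1 cells, which overexpress human GDF1, a secreted ligand of the TGF-β superfamily. The GDF1 gene was delivered by virus and transduced cells were selected with puromycin. Whether a single clone or a pool was sequenced, and which promoter drives GDF1, is not given in the sources used here. The authors deposited TPM values (transcript abundance), each a level scaled by gene length and by the library total, so that levels can be compared between genes. With 1 library per condition there is no replicate check, no test was made, and every difference below is a difference between these libraries.

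A lncRNA is transcribed and usually spliced like an mRNA but acts as RNA. Some lncRNAs build nuclear bodies (NEAT1 scaffolds paraspeckles and MALAT1 gathers in nuclear speckles), some bind chromatin-modifying complexes (HOTAIR, MEG3 and TUG1 have been described as partners of the Polycomb complex PRC2), and some are spliced shells around intronic small nucleolar RNAs (snoRNAs), as GAS5 and SNHG1 are. HULC was named for its high level in liver cancer, UCA1 for urothelial cancer, and PVT1 lies beside the MYC oncogene.

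GDF1, the introduced gene, was listed at 2.096 and 4.64 TPM and CERS1, which overlaps it, at 13.3 and 9612 TPM, in control and GDF1 cells in that order, as in all pairs of values given without labels. Reads of this overlapping pair cannot be told apart. All TPM summed to 999990 in PLC-8024-CTR and 999995 in PLC-8024-GDF1, which reflects the scaling and not the depth. The depth cannot be read from these values, and no counting interval is given.

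UCA1 was higher and HULC and TUG1 were lower in PLC-8024-GDF1 cells by more than 2-fold, while MALAT1, NEAT1, GAS5, PVT1 and SNHG1 stayed within 2-fold and HOTAIR and MEG3 were under 1 TPM in both libraries. Of the 10 genes, 8 had 5 TPM or more in at least 1 library, the minimum used for all counts past 2-fold. Of these 8, 1 was past 2-fold upwards and 2 were past 2-fold downwards by the plain TPM ratio. The share past 2-fold in either direction was 19.1% over all 9632 genes with at least 5 TPM (5.79% higher and 13.3% lower) and 23.9% over the 586 such genes annotated as lncRNA (17.9% higher and 5.97% lower). Among 8454 protein-coding genes it was 18.8% (4.86% higher and 13.9% lower). By the annotation used, TUG1 was counted with the protein-coding genes and HULC in neither class, so both are missing from the lncRNA genes. With 8 genes, no test of the count of 3 against these shares was made. The median log2 ratio of all 9632 genes was -0.21, and with the PLC-8024-GDF1 values multiplied by 1.15 to bring it to 0, HULC was no longer past 2-fold and the count downwards was 1. HULC was also within 2-fold when both rows of its symbol were added. On that scale the shares were 16.8% over all genes (8.1% higher and 8.74% lower) and 29.5% over lncRNA genes (25.9% higher and 3.58% lower).

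**Figure D1:**
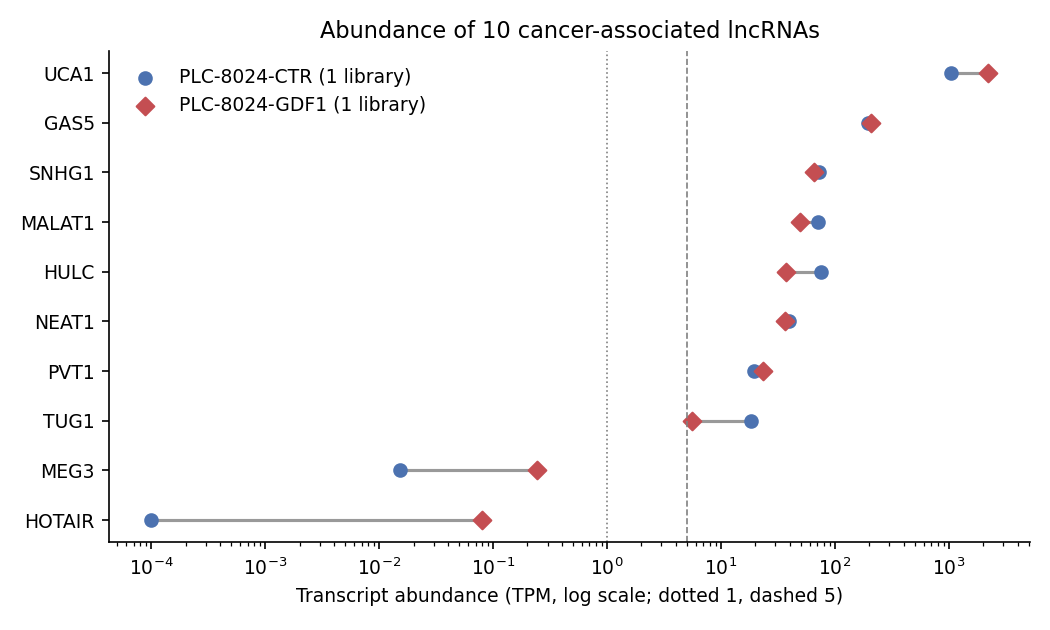
Abundance of the 10 lncRNAs in TPM on a log axis, with a circle for the PLC-8024-CTR library and a diamond for the PLC-8024-GDF1 library. The deposited tables hold no 0, and 0.0001 is taken as not detected. HULC is plotted by the row used for it, the smaller of 2. UCA1 lies furthest right at 1041 and 2197 TPM, the longest grey lines among the 8 expressed genes are those of UCA1, HULC and TUG1, and HOTAIR and MEG3 lie left of the dotted line at 1 TPM.

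Sequences of MALAT1 and NEAT1 are shown first because the libraries were made from RNA caught on poly-T beads, and the full-length forms of these genes have no ordinary poly(A) tail. Each ends instead in an A-rich tract encoded in the genome, which folds back on U-rich stretches upstream. The 80 bases that end with that tract are given from GRCh37, plus strand. Capitals mark AAAAGCAAAA, the last 10 bases of NEAT1, and its reverse complement TTTTGCTTTT, searched on the transcribed strand. The MALAT1 stretch is chr11:65273508-65273587 and the NEAT1 stretch is chr11:65212932-65213011.
MALAT1: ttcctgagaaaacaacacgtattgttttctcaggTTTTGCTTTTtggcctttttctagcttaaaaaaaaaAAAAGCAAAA
NEAT1: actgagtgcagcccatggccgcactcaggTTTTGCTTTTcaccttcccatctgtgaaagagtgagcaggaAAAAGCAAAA
Over the longest transcript of each of 64476 annotated genes, cut into 1506626 consecutive windows of 80 bases, either motif was found in 1962 windows (0.13%) and both in 4. Both stretches were cut to end on AAAAGCAAAA, so that match was set beforehand, and in NEAT1 it holds by definition. AAAAGCAAAA was found 2 times in the MALAT1 transcript, and the last was used. Windows cut at fixed positions miss motifs that span a cut. A match describes the letters only. How well poly-T beads caught the full-length and the ordinarily polyadenylated short forms was not measured, so the TPM of these genes need not follow their amount in the cell.

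The first 60 bases of the annotated transcripts of UCA1 and TUG1, both past 2-fold, are shown with each CG in capitals. They lie at chr19:15939016-15939075 (UCA1) and chr22:31365251-31365310 (TUG1) of GRCh37, both on the plus strand. They identify the transcripts of the annotation used here, and the deposited values need not rest on the same ones.
UCA1: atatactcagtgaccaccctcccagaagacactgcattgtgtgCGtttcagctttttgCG
TUG1: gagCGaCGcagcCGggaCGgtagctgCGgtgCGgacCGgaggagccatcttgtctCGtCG
TUG1 began with 9 CG in 60 bases, more than in 94.6% of 64213 annotated genes, and UCA1 with 2, more than in 54.6%. No CG was found there in 32.4% of all genes.

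UCA1 (ENSG00000214049) lies on chromosome 19 from 15939016 to 15947138 on the plus strand, and its canonical transcript has 5 exons. It went from 1041 TPM without to 2197 TPM with GDF1. The level was 2.11 times as high with GDF1, a log2 change of 1.08 by the plain ratio and with a pseudocount of 1 alike. It was already the most abundant of the 14088 annotated lncRNA genes in the control library and remained so. Among all genes it stood at rank 141 in PLC-8024-CTR and rank 76 in PLC-8024-GDF1. Of the 586 lncRNA genes with at least 5 TPM, 90.3% had a smaller log2 change than UCA1, so changes of this size were found in other lncRNAs too. No other annotated lncRNA gained as much TPM.

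Because of that level, UCA1 weighed heavily in sums. It made up 6.96% of all lncRNA TPM in PLC-8024-CTR and 12.0% in PLC-8024-GDF1. All lncRNA genes together held 14949 and 18260 TPM, and UCA1 gave 34.9% of the difference. The 10 genes together changed from 1531 to 2622 TPM, a log2 ratio of 0.78, whereas the other 9 without UCA1 changed from 490.2 to 425.3 TPM, a log2 ratio of -0.21. With the second rows of MALAT1 and HULC included, an alternative chosen after seeing the data, those 9 genes changed from 722.7 to 566.9 TPM, a log2 ratio of -0.35. The sum of all 10 therefore describes UCA1 rather than the group.

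LINC01764, a lncRNA that overlaps UCA1 on the opposite strand, went from 0.11 TPM without to 2.21 TPM with GDF1. Whether strand was kept in the libraries or used in counting is not given in the sources used here, and without it reads of an overlapping pair cannot be told apart. UCA1 with LINC01764 added gave a log2 change of 1.08. A second row with the symbol UCA1 (ENSG00000273782) was listed at 0.28 and 0.25 TPM.

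HULC (ENSG00000251164) is a lncRNA studied chiefly in hepatocytes and liver tumours. Its identifier is absent from the annotation used, and a 2-exon transcript of that symbol of 947 bases on chromosome 6 was taken for its position and GC content. HULC went from 75.1 TPM without to 36.8 TPM with GDF1, so the control level was 2.04 times as high, just past 2-fold (log2 change -1.01 with a pseudocount of 1). A second row of the same symbol (ENSG00000276019) was listed at 232.2 and 141.4 TPM, a plain log2 ratio of -0.72. Both rows were lower with GDF1, and with the TPM of the rows added the log2 change was -0.78, within 2-fold. How reads were shared between these rows is not known. Rescaled to a median ratio of 0, the change of HULC was -0.81, and with values set relative to the total of protein-coding genes alone it was -0.96.

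Hepatocyte markers are given beside HULC, since the cell line is labelled as liver. All 9 hepatocyte lineage markers examined (ALB, AFP, APOA1, APOB, TTR, SERPINA1, HNF4A, KRT8 and KRT18) had 5 TPM or more in at least 1 library. The 5 lower with GDF1 by more than 2-fold were ALB, AFP, APOA1, TTR and HNF4A. Over protein-coding genes with at least 5 TPM, 13.9% were lower by more than 2-fold, and over all genes 13.3%. APOB and SERPINA1 were listed lower within 2-fold, and KRT8 (1424 and 1777 TPM) and KRT18 (1005 and 1224 TPM) were listed higher. AFP, at 31.4 and 9.75 TPM, is treated by the authors as a liver progenitor marker, unlike ALB and TTR. They reported progenitor markers as induced and hepatic markers as inhibited by GDF1 in PLC-8024 cells by qPCR. They also reported dedifferentiation by western blot and by staining of tumours. AFP was listed in the other direction here, and ALB and TTR in the same direction. Their other progenitor markers (EPCAM, KRT19, SOX9 and KRT7) were not among the markers examined. The 9 markers summed to 8527 and 6168 TPM, a difference close to that of SERPINA1 alone (5308 and 2915 TPM). Of 6 markers of other cell types, PTPRC, COL1A2 and ACTA2 were listed at 0.0001 TPM in both libraries, COL1A1 was under 1 TPM, and CD68 and PECAM1 reached at least 5 TPM. CD68 was also past 2-fold lower, at 33.1 and 13.2 TPM, while PECAM1 was listed at 23.2 and 22.2 TPM, and this list summed to 56.5 and 36.2 TPM. Their part in the change of HULC was not tested. In RNA from a whole culture, fewer cells with a transcript and less of it per cell cannot be told apart.

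TUG1 (ENSG00000253352) lies on chromosome 22 from 31365231 to 31375381 on the plus strand. It was first described as a taurine-induced transcript and has been described as a partner of PRC2. The annotation used here types it as protein-coding. It went from 18.4 TPM without to 5.52 TPM with GDF1. The control level was 3.33 times as high, the largest fold among the 8 expressed genes (log2 change -1.57 with a pseudocount of 1). Of all 9632 genes with at least 5 TPM, 3.64% had a lower log2 change. Under each of the 5 alternatives computed for it, the change stayed past 2-fold, between -1.74 and -1.23.

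TUG1 lies head to head with MORC2, a gene encoding a chromatin-remodelling ATPase, whose start is 471 bases away on the opposite strand. MORC2 was listed at 30.1 TPM and 33.4 TPM, a log2 change of 0.14, and the ratio of TUG1 to MORC2 was 0.61 in PLC-8024-CTR and 0.17 in PLC-8024-GDF1. So of this divergent pair TUG1 was lower and MORC2 was slightly higher with GDF1. The promoter of TUG1 is shown because it faces that of MORC2. It is taken from RefSeq (chr22:30969015-30969314 of GRCh38.p14, plus strand, 300 bases around the start), with each CG in capitals.
TUG1 promoter: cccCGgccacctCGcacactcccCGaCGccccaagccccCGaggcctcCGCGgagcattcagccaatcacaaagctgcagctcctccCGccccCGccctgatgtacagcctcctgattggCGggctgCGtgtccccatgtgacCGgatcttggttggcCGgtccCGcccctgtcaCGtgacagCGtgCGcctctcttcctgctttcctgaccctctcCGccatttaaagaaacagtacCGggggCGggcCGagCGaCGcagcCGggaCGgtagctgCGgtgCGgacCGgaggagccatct
It holds 28 CG, more than 73.8% of 35116 RefSeq promoters of this length, whose median was 14. Counted alike, SNHG1 held 30 CG and GAS5 5, and MALAT1 held 37 or 14 and MEG3 17 to 19, depending on the promoter listed. Methylation was not measured here.

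MALAT1 (ENSG00000251562, chromosome 11, 65265111 to 65275544) and NEAT1 (ENSG00000245532, 65190245 to 65213011) are neighbours on the plus strand, with starts 74866 bases apart, and both canonical transcripts are unspliced. MALAT1 went from 71.0 TPM without to 49.0 TPM with GDF1, a log2 change of -0.53. NEAT1 was listed at 39.7 and 36.5 TPM, a log2 change of -0.12. MALAT1 was thus lower by less than 2-fold, and the difference of NEAT1 was close to 0. Rescaled to a median ratio of 0, MALAT1 stood at -0.32 while NEAT1 turned to 0.08.

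Paraspeckle proteins bind NEAT1, and all 14 on the list examined had 5 TPM or more in at least 1 library. Of these, 13 were listed lower and 1 (MATR3, 4.71 and 5.45 TPM) higher in PLC-8024-GDF1. Most protein-coding genes with at least 5 TPM were also lower (5611 of 8454). The median log2 change of the 14 was -0.54, beside -0.25 over protein-coding genes and -0.20 over all genes with at least 1 TPM. Only CPSF6, a cleavage factor subunit, was past 2-fold, at 14.4 and 6.39 TPM. Of protein-coding genes with at least 5 TPM, 18.8% were past it (4.86% higher and 13.9% lower). The core proteins NONO (183.9 and 133.0 TPM) and SFPQ (149.4 and 134.4 TPM) stayed within 2-fold. NEAT1, at -0.12, lay nearer to 0 than the median of these 14.

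GAS5 and SNHG1 carry snoRNAs in their introns and are spliced to short RNAs that are degraded in step with translation. GAS5 (ENSG00000234741, chromosome 1, 173827697 to 173838020, minus strand, 12 exons in the canonical transcript) went from 194.8 TPM without to 208.1 TPM with GDF1, a log2 change of 0.10. SNHG1 (ENSG00000255717, chromosome 11, 62619450 to 62623425, minus strand, 11 exons) was listed at 71.9 and 65.6 TPM, a log2 change of -0.13. Both were abundant and differed little, and SNHG1 turned to 0.07 when values were rescaled to a median ratio of 0.

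Of 25 other snoRNA host lncRNAs, 23 had 1 TPM or more in at least 1 library and 20 had at least 5 TPM. Of these 20, 18 were within 2-fold, as GAS5 and SNHG1 were. Over all lncRNA genes with at least 5 TPM, 23.9% were past it. SNHG25 was past 2-fold upwards, from 29.7 TPM without to 83.1 TPM with GDF1, and DANCR, a host lncRNA linked to progenitor cell states, was past it downwards, at 41.9 and 14.5 TPM. SNHG9 fell just short of the threshold at 29.97 and 59.6 TPM. Over the 23 genes the median log2 change stood at 0.10, and the list summed to 1794 and 2104 TPM. SNHG25 and DANCR thus moved in opposite directions past 2-fold, and the other 18 did not pass it.

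Proteins that act on such RNAs were also mostly within 2-fold, as were protein-coding genes with at least 5 TPM, of which 18.8% were past it. Among the 4 core proteins of box C/D snoRNPs, the methyltransferase fibrillarin (FBL) was listed at 569.5 and 578.7 TPM, NOP56 at 134.0 and 110.3 TPM, NOP58 at 67.2 and 35.4 TPM, and SNU13 at 61.5 and 90.5 TPM, none past 2-fold. Of 10 factors of nonsense-mediated decay, the pathway that removes spliced GAS5 and SNHG1, 7 had at least 5 TPM, and only SMG6, an endonuclease, was past 2-fold, at 8.70 and 2.13 TPM. Of the 10, 9 were listed lower and 1 higher. Their median log2 change was -0.32, beside -0.25 over protein-coding genes with at least 1 TPM, of which 7949 of 11792 were lower.

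SNHG1 starts 51 bases from SLC3A2, an amino acid transporter subunit on the opposite strand. SLC3A2 went from 232.7 TPM without to 181.5 TPM with GDF1, a log2 change of -0.36, and the ratio of SNHG1 to SLC3A2 was 0.31 and 0.36. Neither gene of this divergent pair passed 2-fold, in contrast to TUG1 beside MORC2. The 50 bases between the annotated starts are shown in capitals with 30 bases of each gene beside them, from chr11:62623396-62623505 of GRCh37, plus strand, on which SLC3A2 reads to the right and SNHG1 to the left.
SNHG1 to SLC3A2: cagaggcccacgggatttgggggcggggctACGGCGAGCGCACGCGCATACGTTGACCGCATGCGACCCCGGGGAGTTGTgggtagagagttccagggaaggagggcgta
The 110 bases hold 12 CG.

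PVT1 (ENSG00000249859) spans chromosome 8 from 128806772 to 129199347 on the plus strand, next to MYC. It went from 19.4 TPM without to 23.5 TPM with GDF1, a log2 change of 0.26. MYC was listed at 3.76 and 3.94 TPM, a log2 change of 0.05. Both differed by well under 2-fold. RNU1-106P, a small nuclear RNA pseudogene inside PVT1, was listed at 1.70 and 0.17 TPM.

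HOTAIR (ENSG00000228630, chromosome 12, 54356092 to 54368740, minus strand) is transcribed from the HOXC cluster and has been described as a bridge between PRC2 and the LSD1 complex. Its level was 0.0001 TPM, taken as not detected, in control cells and 0.080 TPM in GDF1 cells. MEG3 (ENSG00000214548, chromosome 14, 101245747 to 101327368, plus strand), an imprinted lncRNA with growth-suppressing activity, was listed at 0.015 and 0.24 TPM. TPM keeps no depth, so it does not show the number of reads behind values this low, and no fold is read from them. DLK1, RTL1, MEG8 and MEG9, the other genes of the imprinted MEG3 domain examined, were each listed at 0.0001 TPM in both libraries.

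HOXC11, another gene of the HOXC cluster, was also under 1 TPM in both libraries, at 0.056 and 0.44 TPM. Of the 11 genes within 100 kb of HOTAIR with 1 TPM or more in at least 1 library, HOXC10 was listed at 31.5 and 26.2 TPM, HOXC13 at 14.6 and 18.1 TPM and HOXC9 at 11.9 and 10.4 TPM. That minimum by itself sets all 11 above HOTAIR. Of these 11, 5 had at least 5 TPM. Among the 5, only HOXC-AS1, another antisense lncRNA of the cluster, was past 2-fold, at 7.94 and 21.6 TPM. Over all genes with at least 5 TPM, 19.1% were past it. The 7 PRC2 subunits examined all had at least 1 TPM, and of the 4 with at least 5 TPM none was past 2-fold. Among protein-coding genes with at least 5 TPM the share was 18.8%. EZH2, the catalytic subunit, was listed at 16.6 and 13.8 TPM, its paralog EZH1 at 14.2 and 9.68 TPM, and RBBP7 at 107.5 and 91.9 TPM.

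**Figure D2:**
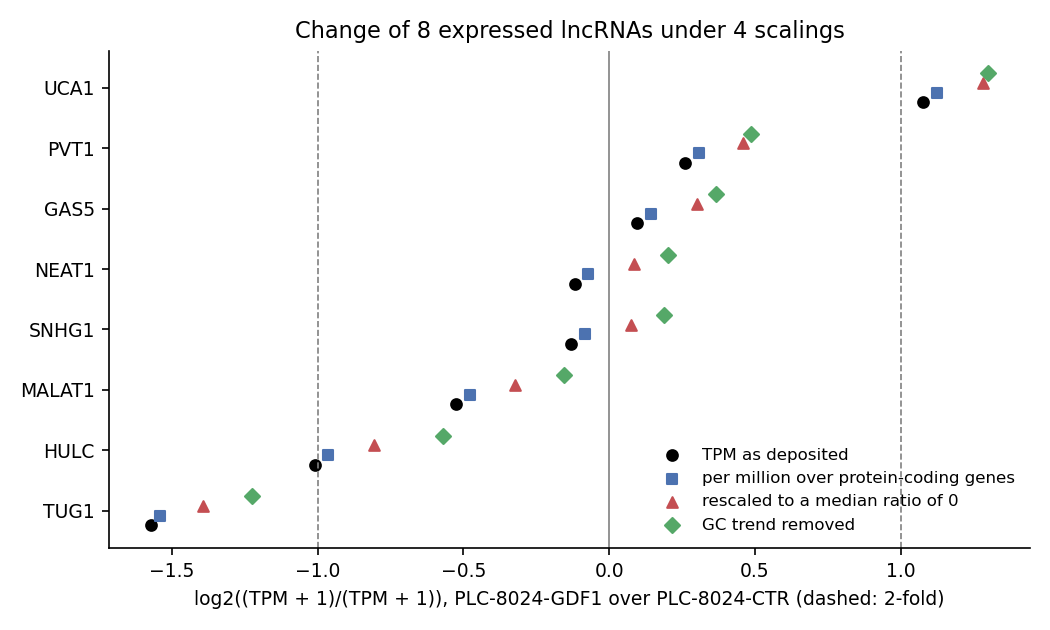
Log2 change of the 8 expressed lncRNAs with a pseudocount of 1 under 4 scalings, each point 1 ratio of the PLC-8024-GDF1 to the PLC-8024-CTR library. TUG1 stays left of the lower dashed line and UCA1 right of the upper one in all 4, HULC crosses the lower one (-1.01 to -0.57), and NEAT1 and SNHG1 change sign.

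By 1 row per gene, the order of TPM in the control library was UCA1, GAS5, HULC, SNHG1, MALAT1, NEAT1, PVT1 and TUG1. HULC, SNHG1 and MALAT1 lay between 71.0 and 75.1 TPM in these rows, and without replicates such neighbours cannot be ranked. In PLC-8024-GDF1 the order by the same rows was UCA1, GAS5, SNHG1, MALAT1, HULC, NEAT1, PVT1 and TUG1. The place of HULC depends on the row: with both of its rows added it stood at 307.3 TPM in control and 178.2 TPM in GDF1 cells, above GAS5 (194.8 TPM) in the control library and next below it (208.1 TPM) in the other. With 2 libraries a gene's pattern is a single ratio, so no gene was sought for a pattern like theirs.

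Over the 8 expressed genes, the median log2 change stood at -0.12, and at 0.08 when values were rescaled to a median ratio of 0. As deposited, it was 0.12 over the 1716 annotated lncRNA genes with 1 TPM or more in at least 1 library, -0.25 over 11792 protein-coding genes and -0.20 over all 14929 genes. More lncRNA genes were listed higher (994) than lower (722), while 3843 protein-coding genes were higher and 7949 lower. MALAT1, NEAT1, HULC, SNHG1 and TUG1 were thus on the side that most protein-coding genes took. UCA1, GAS5 and PVT1 were on the side that most lncRNA genes took, and NEAT1 and SNHG1 changed sides when rescaled. TUG1 is itself 1 of the protein-coding genes here, and HULC is in neither class.

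**Figure D3:**
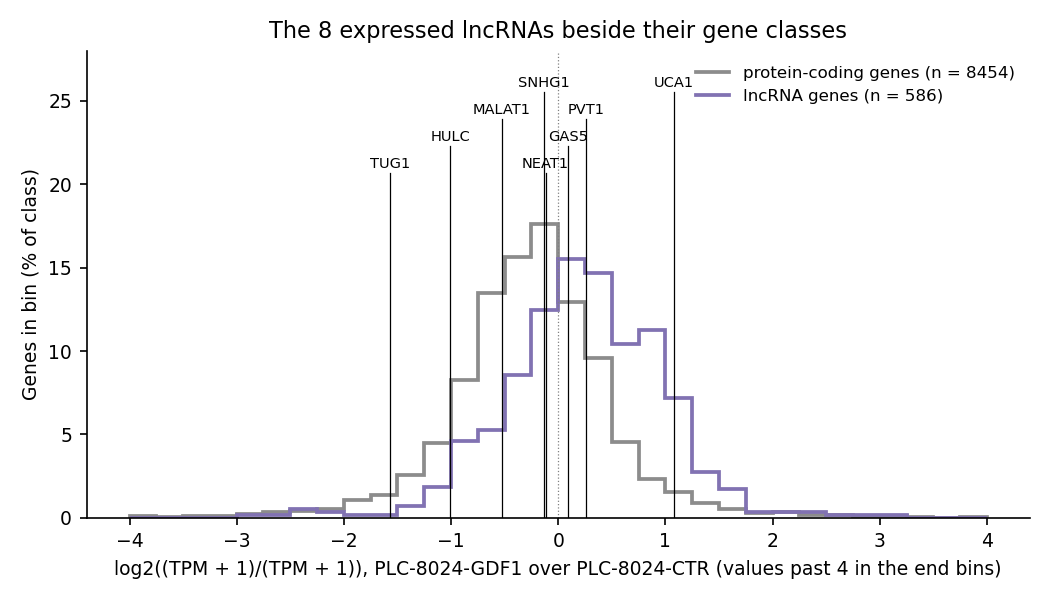
Distribution of log2 changes in bins of 0.25 among 586 lncRNA genes (purple) and 8454 protein-coding genes (grey) with 5 TPM or more in at least 1 library, with black lines at the 8 expressed lncRNAs. The purple curve is centred at 0.24 and the grey at -0.23, UCA1 lies in the right shoulder and TUG1 in the left tail.

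The GC content of the transcripts of the 8 genes ran from 36.2% (HULC) to 48.2% (UCA1), with a median of 44.1% beside 51.8% for the 586 lncRNA genes. Across all genes the ratio was lower at low GC content, and the fitted trend stood at -0.44 at the GC content of HULC and -0.22 at that of UCA1. With the trend subtracted, the log2 change was -0.57 for HULC, -0.16 for MALAT1, -1.23 for TUG1 and 1.3 for UCA1. TUG1 and UCA1 thus kept more than 2-fold and HULC did not. The part of GC content in the change of HULC was not tested.

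Of 45 other cancer-linked lncRNAs, 19 were under 1 TPM in both libraries and 12 had at least 5 TPM in either. The only 1 of these 12 past 2-fold was H19, the imprinted fetal lncRNA, from 231.6 TPM without to 32.8 TPM with GDF1. Over all lncRNA genes with at least 5 TPM, 23.9% were past 2-fold (17.9% higher and 5.97% lower). The difference of H19 was larger than those of HULC and TUG1, and no link between them was tested. Of the 26 with at least 1 TPM, 19 were listed lower and 7 higher, beside 722 lower and 994 higher over all such lncRNA genes. The median log2 change of the 26 was -0.30. That median lay on the other side of 0 from the median of all lncRNA genes, and no test of that difference was made.

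**Figure D4:**
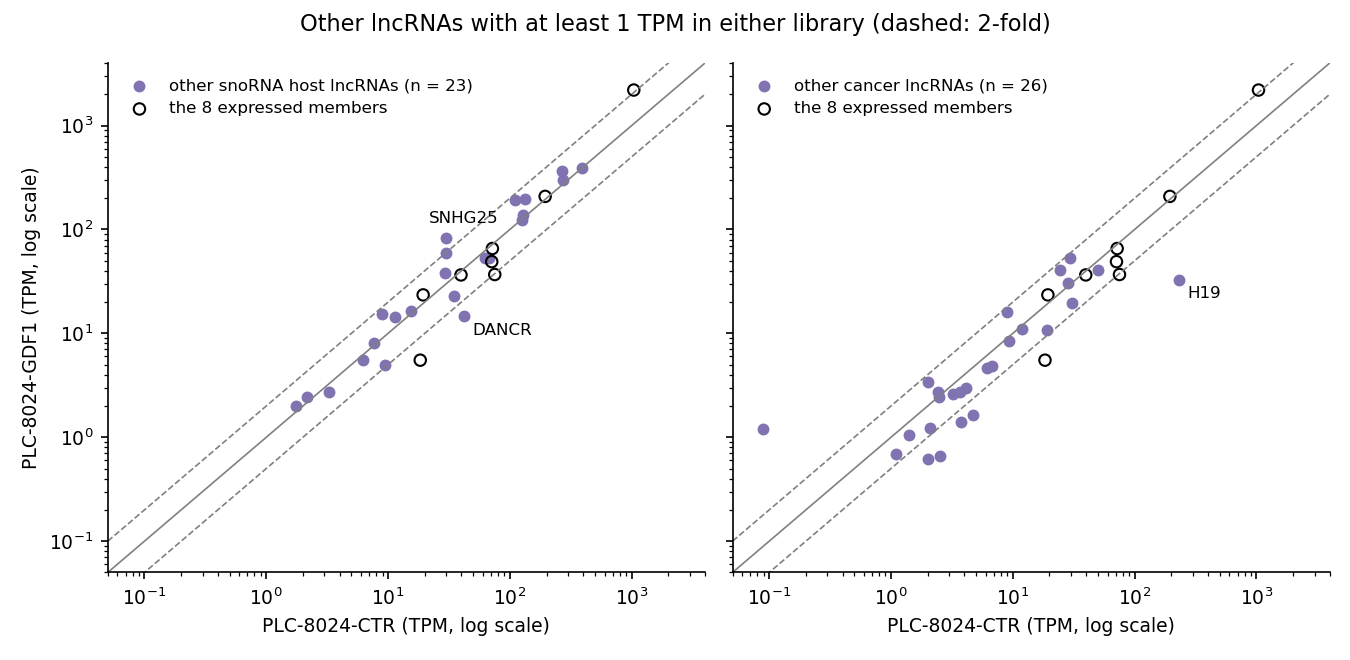
TPM in PLC-8024-CTR against TPM in PLC-8024-GDF1 on log axes for 23 other snoRNA host lncRNAs (left) and 26 other cancer-linked lncRNAs (right), with the 8 expressed genes of the main set as open circles. Most purple points lie between the dashed 2-fold lines, and SNHG25, DANCR and H19 are named as those outside them with at least 5 TPM.

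Within 100 kb of the 10 genes lay 51 other annotated genes with 1 TPM or more in at least 1 library, of which 27 were listed higher and 24 lower, with a median log2 change of 0.02. Of the 28 with at least 5 TPM, 2 were past 2-fold upwards and 3 downwards. The share past 2-fold over all genes with at least 5 TPM was 19.1% (5.79% higher and 13.3% lower). MAP3K11, a kinase of the JNK pathway near MALAT1, was listed at 25.5 and 80.5 TPM, and HOXC-AS1 is given above. SERPINC1, which encodes antithrombin and lies near GAS5, was listed at 14.5 and 1.72 TPM, the pseudogene AP000769.1 between NEAT1 and MALAT1 at 23.5 and 10.5 TPM, and MORC2-AS1 near TUG1 at 5.08 and 0.24 TPM. MALAT1 was thus lower and MAP3K11 higher, and GAS5 was slightly higher while all 5 genes counted around it were lower. Only 2 of those 5 had at least 5 TPM, and 9443 of all 14929 genes with at least 1 TPM were lower too. GAS5-AS1, antisense to GAS5, was listed at 1.26 and 0.95 TPM. No gene with at least 1 TPM was found within 100 kb of HULC or MEG3.

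**Figure D5:**
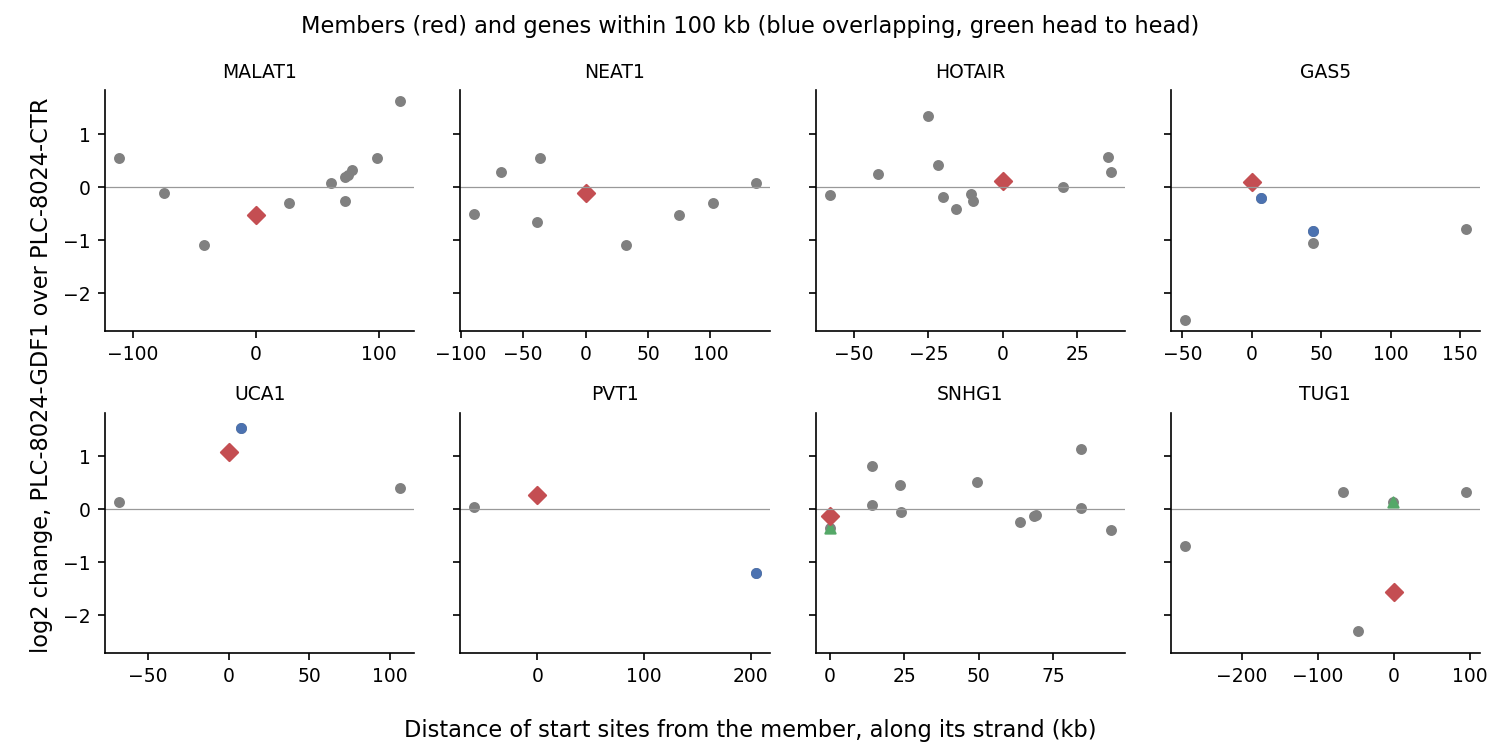
Log2 change (pseudocount of 1) of 8 of the 10 lncRNAs (red diamonds) and of genes within 100 kb with 1 TPM or more in at least 1 library, by the distance between start sites in kb along the strand of the lncRNA. Blue points overlap the lncRNA and green triangles are head to head with it. Around TUG1 the head-to-head gene MORC2 lies near 0 (0.14) while TUG1 lies at -1.57, and around GAS5 (0.10) all neighbouring genes lie below 0. Of all 14929 genes with at least 1 TPM, 9443 were lower.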

How the data were processed

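The authors made 1 RNA-seq library from control and 1 from GDF1-overexpressing PLC-8024 cells, using poly-T-selected RNA. Per the labels and methods, reads were checked with FastQC 0.11.2, trimmed with Trimmomatic 0.36, aligned to hg19 (GRCh37) with HISAT2 2.1.0 and quantified with StringTie 1.3.3b, and the authors deposited 1 TPM value per gene and library. The authors also scaled read counts by TMM, called differential genes with DEGseq and gave quality metrics, none of which was used here. The columns are headed as mean TPM, and what was averaged is not given in the sources used here. No value is 0. The value 0.0001 fills 34129 rows of the control and 33867 of the GDF1 library and was taken as not detected, while 13 and 14 rows lie below it. TPM keeps no depth and is relative to the library total. The rows of both tables were joined on gene identifier. For MALAT1, HULC and UCA1, each listed in 2 rows, the row with the lower identifier number was used. Log2 changes are GDF1 over control, with a pseudocount of 1, which makes changes of low genes smaller, or plain TPM ratios (values under 0.0001 set to 0.0001) for counts past 2-fold among genes reaching 5 TPM in at least 1 library. Lists and medians used at least 1 TPM.

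Positions, gene types and transcripts came from GENCODE release 44 on GRCh37, which held 55726 of 58174 identifiers. Neither HULC identifier was among them, so HULC was placed by 1 annotated transcript of its symbol, chosen by hand. The GC trend was a lowess fit (span 0.3). RefSeq promoters matched 5 of the 10 genes. Python 3.11.15, numpy 2.4.6, pandas 2.3.3, statsmodels 0.14.6 and matplotlib 3.10.9 were used, and the counting was tested on simulated data. The 10 genes, the lists and the alternatives were chosen with earlier results of these data known. Genes named were the 10, those of each list past 2-fold with at least 5 TPM or else its 3 highest, and neighbours that overlap a member, start within 2 kb of it on the other strand or pass 2-fold. MATR3, NONO, SFPQ, NOP58, SNHG9, MYC, HOXC9, HOXC10, HOXC11 and HOXC13 and the marker, imprinted and introduced genes are outside this rule and were chosen after their values were seen or as background. Some items among the neighbouring genes and sequences are not reported here.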

Additional observations from a re-analysis of the deposited data

How the results depend on the processing

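No paired analysis was possible because only 1 library was made for each of the cell populations. The alternatives computed were other scalings of TPM, pseudocounts, TPM minimums, removal of the GC trend and the adding of rows with the same symbol. With TPM rescaled to a median ratio of 0, NEAT1 reversed to 0.084 and SNHG1 to 0.074, and with the GC trend removed to 0.20 and 0.19; the median of the 8 genes reversed to 0.079 and 0.19 under these settings, which both centre all ratios. The log2 ratio of the summed TPM reversed to -0.21 without UCA1, and to -0.35 without UCA1 but with rows of the same symbol added, a setting chosen after seeing the data. The number of the 10 genes past 2-fold downwards went from 2 to 1 under both settings and relative to protein-coding genes alone, since HULC no longer passed. Of the other snoRNA hosts, 3 rather than 1 were past 2-fold upwards when rescaled and 2 relative to protein-coding genes alone. Of the other cancer lncRNAs, 2 rather than 0 were higher when rescaled, and with a minimum of 1 TPM 1 was higher and 5 rather than 1 lower. Of the partner proteins, 1 rather than 2 was lower when rescaled or with a minimum of 10 TPM. MEG3 passed 2-fold with a pseudocount of 0.1 (1.57) and by the plain ratio (3.985), from levels under 1 TPM. TPM does not show how many reads lie behind any of these values, those of HOTAIR and MEG3 included.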

Other observations

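The tables also list short rows named after segments of these lncRNAs, which the comparisons above did not use. TUG1_3 went from 1.21 TPM without to 1.05 TPM with GDF1, a plain log2 ratio of -0.21 beside -1.74 for the TUG1 gene, and TUG1_2 and TUG1_4 were listed at 0.0001 TPM in both. The rows NEAT1_1, NEAT1_2 and NEAT1_3 were under 0.1 TPM in both libraries, as were PVT1_1 and PVT1_3. The second MALAT1 row (ENSG00000278217) was listed at 0.29 and 0.20 TPM, so its plain log2 ratio of -0.59 lay near the -0.53 of the main row. How the authors' counting shared reads between these rows and the genes that contain them is not given in the sources used here.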
